A study of Mus musculus with 9 samples.

Results

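The sarcomere and excitation-contraction genes described here are 52 genes, chosen by symbol, that encode parts of the contractile unit of striated muscle and of the calcium release that sets it in motion; actins and myosin heavy chains were left out. All 52 symbols matched 1 Ensembl ID each among the 53700 in the count table. RNA came from C2C12, a mouse myoblast line that divides in rich serum and can fuse into contracting myotubes when serum is withdrawn. Cells of all groups were plated for 12 h and then held for 12 h in OPTI-MEM, a reduced-serum medium, after which Control was collected. The Valine wells were then given the branched-chain amino acid valine at 0.45 mM over 36 h. The Val+PA wells were given the same dose over 24 h and then 12 h with palmitic acid, a saturated fatty acid, at 75 µM; whether valine stayed in the medium for those hours is not stated. A single plate of the unmodified line supplied each group, and 3 wells of it were sequenced, so tests measure the spread among wells of 1 plate. The later time, the other plate and the added nutrient cannot be told apart in any comparison with Control. Val+PA and Valine were also separate plates, so the plate, the palmitic acid and any difference in the hours of valine cannot be told apart.

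A sarcomere is built from thin filaments of actin with nebulin, tropomyosin and troponin, and thick filaments of myosin held at the M-band, with titin running from the M-band to the Z-disc. Calcium released by the ryanodine receptor, under control of a voltage sensor in the transverse tubule, binds troponin C and frees actin for myosin. Myoblasts make little of this apparatus and switch it on when they differentiate under the myogenic regulatory factors and MEF2 proteins. Embryonic and cardiac isoforms of several parts come first and slow and fast skeletal isoforms later.

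The libraries held 26750226 to 35976589 counts, and a single count (1) equalled 0.0271 to 0.0403 CPM, a count scaled to the effective size of its library. Libraries Control 3 and Val+PA 2 stood apart from the rest of their groups, with mt-Co1, a mitochondrial transcript, at 1229 and 865 CPM against 2935 to 5303 CPM in the other libraries. The members held 0.269 to 0.291% of all counts in Control, 0.420 to 0.423% in Valine wells and 0.360 to 0.498% in Val+PA. Des alone gave 39.8 to 61.9% of the member counts. Without Des, the summed member level was 1537 to 1690 CPM in Control, 2122 to 2204 CPM in Valine and 1693 to 1938 CPM in Val+PA. Every Valine library was above every other one by that sum, and the lowest Val+PA library lay just above the highest Control library. That order leaned on Ttn, at 917 to 942 CPM in Valine, 541 to 662 in Val+PA and 437 to 497 in Control. On the authors' deposited signal, which is relative to exon length, the sum without Des did not keep it. There it was 499 to 563 in Control, 695 to 729 in Valine and 638 to 757 in Val+PA, highest in Val+PA 2.

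Of the 52 members 43 passed the filter on low counts, which keeps a gene that is high in only 1 group. Between Valine and Control 33 of these 43 were higher and 4 lower, where 20.8% of all 18415 genes tested were higher and 21.1% lower (edgeR's quasi-likelihood test at a Benjamini-Hochberg adjusted p below 0.05). The median log2 fold change of the tested members was 1.19 and that of all genes tested -0.00493. Members were chosen with earlier results of these data known, so the contrast with all genes is a description and not a test. Without Control 3 and Val+PA 2, 33 members were higher (27% of all genes tested there) and 5 lower (27.2% of all). The members that fell were Tnnt2, Tpm1, Tpm3 and Xirp1, and those that passed in neither direction were Tnni2, Tpm2, Myoz1, Stac3, Jph1 and Jph2.

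**Figure D1:**
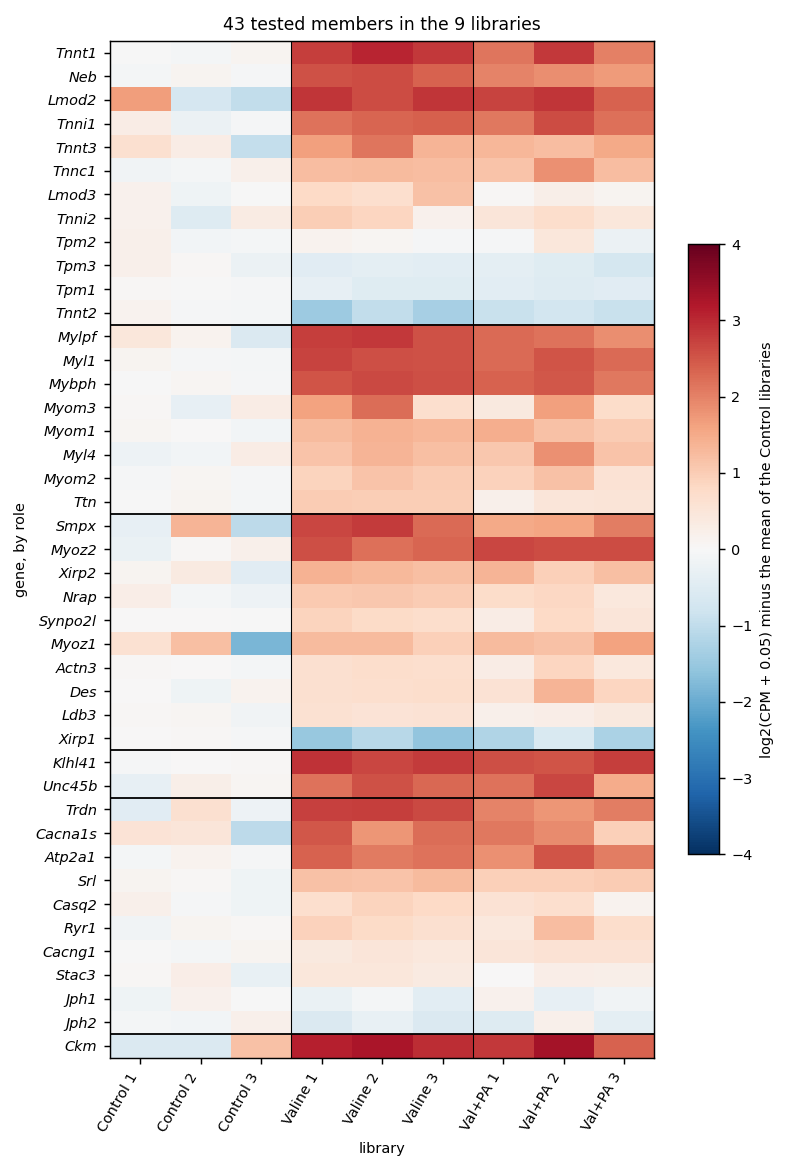
Level of each tested member (rows, by role, with lines between roles) in each library (columns), as log2(CPM + 0.05) minus the mean of the Control libraries. Most rows are above Control in all Valine and Val+PA libraries, while Tnnt2, Tpm1, Tpm3 and Xirp1 are below it.

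Levels of different genes were compared on the authors' deposited signal, which is relative to exon length. In Control the order began with Des at 669.6 ± 53.2, Tpm1 at 159.5 ± 8.0, Tpm3 at 78.8 ± 13.0, Actn3 at 65.9 ± 4.8, Cacng1 at 65.8 ± 2.0 and Tpm2 at 49.7 ± 6.1 (deposited signal, SD, n = 3). Tpm3, Actn3 and Cacng1 were within their spread of each other. In Valine, Actn3 at 108.0 ± 1.6 and Cacng1 at 90.8 ± 2.8 stood above Tpm3 at 59.7 ± 1.0, and Tpm1 at 120.9 ± 8.0 was second to Des at 1086.5 ± 24.2. Myl1 moved from position 11 of the 52 in Control to 7 in Valine, whereas Xirp1 went from position 10 to 22 and Jph2 from 7 to 12. Control cells already held high levels of Des, Actn3 and Cacng1 transcripts, while most troponin and myosin light chain genes started from low levels.

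In the thin filament, Tnnt1, Tnnt3, Tnni1, Tnnc1, Neb, Lmod2 and Lmod3 rose while Tnnt2, Tpm1 and Tpm3 fell. Of 12 tested members 7 were higher in Valine than in Control, 3 lower and 2 not called. Tnnt1, the slow skeletal troponin T that anchors the complex on tropomyosin, measured 0.257, 0.243 and 0.282 CPM in Control, 2.06, 2.53 and 2.14 CPM in Valine and 1.33, 2.15 and 1.21 CPM in Val+PA. No Control library overlapped with the others, and the log2 fold change of Valine over Control was 3.10 (SE 0.31, adjusted p = 1.12e-05). Tnni1, the slow inhibitory subunit, measured 5.07, 3.55 and 3.99 CPM in Control, 18.9, 21.2 and 22.2 CPM in Valine and 18.3, 25.8 and 19.5 CPM in Val+PA. Its log2 fold change was 2.30 (SE 0.18, adjusted p = 1.53e-06). The Valine and Val+PA libraries overlapped for both genes. Tnnc1, the calcium-binding subunit of slow and cardiac muscle, measured 8.08, 8.54 and 10.4 CPM in Control, 21.1, 21.5 and 21.1 CPM in Valine and 19.9, 31.8 and 20.9 CPM in Val+PA, and its log2 fold change was 1.24 (SE 0.18).

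Tnnt2, the cardiac troponin T that embryonic skeletal muscle also makes, went the other way. It measured 10.5, 9.3 and 9.1 CPM in Control, 3.48, 4.86 and 3.84 CPM in Valine and 5.13, 5.73 and 5.22 CPM in Val+PA. The 3 groups did not overlap, and Valine was below Control by a log2 fold change of -1.25 (SE 0.16, adjusted p = 6.4e-05). Tnni1 and Tnnt2 are neighbours on GRCm38 chromosome 1, on the plus strand at 135779434 to 135810989 and 135836354 to 135852260, with 25.4 kb between them. The windows before a RefSeq start site of each (GRCm38.p6) are printed because these neighbours changed in opposite directions; that of Tnni1 is shortened where an annotated exon begins. Capitals mark the E-boxes CAGCTG and CACCTG, to which myogenic regulatory factors bind, the MCAT motif CATTCC of TEAD factors, the TATA box TATAAA and the MEF2 box, each on either strand.
Tnni1 (chr1:135799171-135799401, plus strand): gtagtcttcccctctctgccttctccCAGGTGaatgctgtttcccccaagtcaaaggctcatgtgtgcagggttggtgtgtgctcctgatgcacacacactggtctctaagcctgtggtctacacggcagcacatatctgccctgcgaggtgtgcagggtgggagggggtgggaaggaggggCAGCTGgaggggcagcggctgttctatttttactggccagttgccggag
Tnnt2 (chr1:135836084-135836333, plus strand): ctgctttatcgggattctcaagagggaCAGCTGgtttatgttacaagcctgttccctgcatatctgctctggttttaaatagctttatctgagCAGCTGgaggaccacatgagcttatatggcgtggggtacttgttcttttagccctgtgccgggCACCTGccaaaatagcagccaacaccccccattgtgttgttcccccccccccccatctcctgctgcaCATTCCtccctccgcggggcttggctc
Both windows held CAGCTG, once in Tnni1 at 68 bases before the start and in Tnnt2 at 223 and 157 bases before it, and both also held CACCTG.

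The fast troponin genes had few or no counts in Control, and so did the slow Tnnt1, with 8, 8 and 7. The fast Tnnt3 had 22, 18 and 5 counts in Control and 54, 71 and 41 in Valine. Tnnt3, the fast troponin T, measured 0.705, 0.547 and 0.201 CPM in Control, 1.47, 2.06 and 1.2 CPM in Valine and 1.17, 1.09 and 1.33 CPM in Val+PA, a log2 fold change of 1.66 (SE 0.36, adjusted p = 0.00308) between Valine and Control. Tnni2, the fast troponin I that lies 54.4 kb from Tnnt3 on chromosome 7, had 6 to 10 counts per library in Control, 11 to 22 in Valine wells and 13 to 15 in Val+PA. Its Valine and Control libraries overlapped (log2 fold change 0.78, SE 0.40, adjusted p = 0.141). Tnnc2, the fast troponin C, had 0 counts in all 9 libraries. Of its 800 exon bases 74.0% also belong to Ube2c on the other strand, and Ube2c had 449 to 1747 counts per library. The strand setting of the counting is not given in the sources used here, so the Tnnc2 value may not measure its transcript.

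As shares of all troponin T counts, Tnnt2 held 92.9 ± 1.8% in Control, 51.5 ± 1.9% in Valine wells and 66.2 ± 1.9% in Val+PA (SD, n = 3). Tnnt1 held 2.53 ± 0.37%, 28.7 ± 1.7% and 19.0 ± 4.4%, and Tnnt3 4.55 ± 2.2%, 19.8 ± 2.7% and 14.9 ± 2.5%. The Tnnt2 and Tnnt1 shares of counts did not overlap between any 2 of the groups. Each of those differences had an exact two-sided permutation p = 0.1, the smallest that 3 libraries against 3 allow, and an adjusted p = 0.14 over the 21 share comparisons made. Per exon length, on the deposited signal, the Tnnt2 share was lower, at 75.1% in Control, 20.7% in Valine wells and 32.2% in Val+PA. On that scale Tnnt1 held 7.22%, 40.5% and 32.4%, and Valine and Val+PA overlapped, with Val+PA 2 at 40.6% and Valine 2 at 37.3%. Tnnt3 held 17.7%, 38.9% and 35.4% on it. The length used takes in every annotated exon base of a gene, 7752 for Tnnt2, 2204 for Tnnt1 and 1583 for Tnnt3. A gene whose transcripts hold only part of these bases has its share understated. Transcript lengths were not measured, so the per-length shares depend on the annotation. Tnni2 held 6.39 ± 1.8% of the counts of Tnni1 and Tnni2 in Control, 2.35 ± 0.84% in Valine wells and 2.01 ± 0.17% in Val+PA. There was no overlap between Control and either other group (exact permutation p = 0.1). The cardiac Tnni3, with 3 to 16 counts per library, is left out of that sum. Per exon length the Tnni2 share was 14.0%, 5.45% and 4.70%. The counts of Tnni1 and Tnni2 came mostly from the slow Tnni1 in every group. Troponin T counts of the later wells came from all of the 3 genes.

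**Figure D2:**
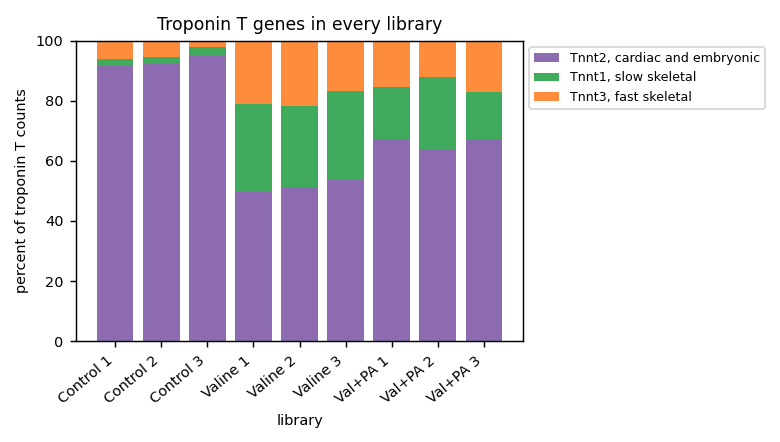
Percent of the summed counts of Tnnt1, Tnnt2 and Tnnt3 that each gene holds (stacked bars from 0 to 100) in each library. Tnnt2 takes most of the Control bars and is lowest in Valine, with Val+PA between them.

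No tropomyosin gene among the members, whose products block myosin from actin at rest, was called higher in Valine than in Control. Tpm1 measured 526, 498 and 494 CPM in Control, 401, 363 and 359 CPM in Valine and 379, 356 and 366 CPM in Val+PA, with every Control library above the others (log2 fold change -0.44, SE 0.09, adjusted p = 0.00205). Tpm3 measured 266, 239 and 198 CPM in Control, 171, 176 and 173 CPM in Valine and 178, 167 and 143 CPM in Val+PA (log2 fold change -0.43, SE 0.12, adjusted p = 0.0132). The Tpm3 call was lost without Control 1, Valine 1 or Valine 3 (adjusted p = 0.0641, 0.0553 and 0.0501). Tpm2 stood at 70.7 ± 8.3, 72.9 ± 5.0 and 74.7 ± 19 CPM in Control, Valine and Val+PA and was not called. Tpm1 and Tpm3 also make the tropomyosins of non-muscle cells by alternative splicing, which counts per gene do not separate.

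Neb encodes nebulin, the giant ruler of the thin filament, and measured 2.92, 3.34 and 3.02 CPM in Control, 18.2, 19 and 16 CPM in Valine and 12.4, 11.2 and 10.1 CPM in Val+PA. The 3 groups did not overlap, and the log2 fold change of Valine over Control was 2.52 (SE 0.14, adjusted p = 1.82e-07). The leiomodins Lmod2 and Lmod3, which nucleate and lengthen actin filaments, rose by 2.45 (SE 0.56) and 0.94 (SE 0.26) on the log2 scale. Lmod2 had 16, 2 and 1 counts in Control. The Lmod3 call was lost without Valine 3 (adjusted p = 0.0645).

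All 8 tested members of the thick filament, M-band and titin group were higher in Valine than in Control. Mylpf, the regulatory light chain of fast myosin, measured 3.59, 2.92 and 1.73 CPM in Control, 18.2, 18.8 and 15.5 CPM in Valine and 12.9, 12 and 9.61 CPM in Val+PA (log2 fold change 2.66, SE 0.22, adjusted p = 2.97e-06). Myl1, the fast essential light chain, measured 8.5, 7.6 and 7.49 CPM in Control, 51.5, 47.3 and 46 CPM in Valine and 38.3, 45.2 and 37.6 CPM in Val+PA (log2 fold change 2.62, SE 0.12, adjusted p = 6.66e-08). Both genes had 3 groups without overlap, in the order Valine, Val+PA and Control. Myl4, the atrial and embryonic essential light chain, measured 2.4, 2.52 and 3.42 CPM in Control, 6.14, 7.18 and 6.33 CPM in Valine and 5.81, 9.93 and 6.06 CPM in Val+PA (log2 fold change 1.24, SE 0.23, adjusted p = 0.000991). Myl1 held 73.9 ± 4.8% of the counts of Myl1 and Myl4 in Control, 88.0 ± 1.3% in Valine wells and 85.0 ± 2.6% in Val+PA. Control did not overlap with either other group (exact permutation p = 0.1, adjusted p = 0.14, n = 3). Valine and Val+PA all but touched, with Valine 2 at 86.827% and Val+PA 1 at 86.823%.

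Mybph, a myosin-binding protein related to the C proteins, rose from 1.93 ± 0.096 to 11.7 ± 0.51 CPM (SD, n = 3), and its log2 fold change was 2.60 (SE 0.15). It lies 88.8 kb from Myog, the gene of the differentiation factor myogenin, on chromosome 1. Of its 2329 exon bases 49.9% are shared with Adora1 on the other strand, which had 2 to 19 counts per library against 46 to 419 for Mybph. Adora1 was also higher in Valine (log2 fold change 2.39, SE 0.51, adjusted p = 0.00256), and its part in the Mybph result was not tested. Its window is printed because an E-box, an MCAT motif and a TATA box lie in it within 79 bases of the start.
Mybph (chr1:134193198-134193447, plus strand): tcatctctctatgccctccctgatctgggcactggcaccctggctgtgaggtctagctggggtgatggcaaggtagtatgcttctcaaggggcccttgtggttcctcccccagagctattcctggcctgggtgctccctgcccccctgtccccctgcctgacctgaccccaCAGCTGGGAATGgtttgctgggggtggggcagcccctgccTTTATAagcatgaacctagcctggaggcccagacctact
The myomesins, which cross-link thick filaments at the M-band, rose too. The log2 fold change was 1.34 (SE 0.18) for Myom1 and 1.02 (SE 0.15) for Myom2. Myom3 rose from 0.0926 ± 0.03 to 0.389 ± 0.22 CPM (adjusted p = 0.0225), a call lost without Control 1, Control 2, Valine 1 or Valine 2 (adjusted p = 0.0618, 0.0824, 0.0539 and 0.107).

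Ttn encodes titin, the molecular spring of the sarcomere. It measured 464, 497 and 437 CPM in Control, 942, 928 and 917 CPM in Valine and 541, 657 and 662 CPM in Val+PA, and the 3 groups did not overlap. Valine stood 1.99-fold above Control (log2 fold change 1.00, SE 0.10, adjusted p = 1.48e-05). Its window held a MEF2 box and CACCTG, printed here on the strand of the gene, where the latter reads CAGGTG.
Ttn (chr2:76982548-76982797, minus strand): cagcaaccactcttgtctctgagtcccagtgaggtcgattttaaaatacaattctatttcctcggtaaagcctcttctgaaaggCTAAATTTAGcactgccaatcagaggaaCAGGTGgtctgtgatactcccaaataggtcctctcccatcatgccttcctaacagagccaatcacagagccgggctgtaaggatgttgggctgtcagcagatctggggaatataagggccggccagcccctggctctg
Mybpc1, the slow myosin-binding protein C, had 0 counts in each Control library, 7, 9 and 15 in Valine wells and 6, 6 and 9 in Val+PA. Against a floor of 3 counts per Control library it was at least 2.91-fold higher in Valine and at least 2.07-fold higher in Val+PA. The fast Mybpc2 had 0 to 4 counts per library. Neither passed the filter on low counts. When edgeR was run with no filter, Mybpc1 was higher than Control in Valine (adjusted p = 3.46e-05) and in Val+PA (0.000378), and Mybpc2 was not called in Valine (0.753) or Val+PA (0.544).

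At the Z-disc and its attachments, 8 of 10 tested members were higher in Valine than in Control, Xirp1 was lower and Myoz1 was not called. Des encodes desmin, the intermediate filament that ties Z-discs together. It measured 1252, 1090 and 1356 CPM in Control, 1894, 1945 and 2001 CPM in Valine and 1818, 3148 and 2234 CPM in Val+PA (log2 fold change 0.66, SE 0.17, adjusted p = 0.00747). Every Control library was below the others, and Val+PA 2 was the highest of all. The window of Des, the member with the highest level, held 1 E-box, CAGCTG, at 36 bases before the start.
Des (chr1:75360042-75360291, plus strand): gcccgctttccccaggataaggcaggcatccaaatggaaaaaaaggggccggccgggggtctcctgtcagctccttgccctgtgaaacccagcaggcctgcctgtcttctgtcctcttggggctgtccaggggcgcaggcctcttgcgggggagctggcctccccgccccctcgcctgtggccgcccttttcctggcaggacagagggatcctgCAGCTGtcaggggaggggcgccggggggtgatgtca
Actn3, the fast-fibre alpha-actinin that crosslinks actin at the Z-disc, measured 97.5, 94.6 and 88.5 CPM in Control, 147, 152 and 150 CPM in Valine and 116, 170 and 125 CPM in Val+PA (log2 fold change 0.68, SE 0.13, adjusted p = 0.00152). Actn2, the alpha-actinin of slow and cardiac muscle, had 2 counts in all Control libraries together, 21 in Valine and 16 in Val+PA, and did not pass the filter. With no filter, edgeR called it higher in Valine (adjusted p = 0.0258) and not in Val+PA (0.0645). The ratio of Valine to Control counts for Actn2 was 8.87 (95% exact interval 2.17 to 78.0, counting error only).

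Myoz2, a calcineurin-binding Z-disc protein of slow fibres, measured 0.16, 0.213 and 0.242 CPM in Control, 1.47, 1.1 and 1.23 CPM in Valine and 1.55, 1.5 and 1.48 CPM in Val+PA, a log2 fold change of 2.62 (SE 0.29, adjusted p = 2.74e-05) between Valine and Control. Its relatives stayed at a few counts. Myoz1 had 7, 12 and 0 counts in Control, 14, 13 and 10 in Valine wells and 14, 11 and 16 in Val+PA, and was not called (adjusted p = 0.365). Myoz3 had 0 to 16 counts per library, did not pass the filter and was not called without it (edgeR adjusted p = 0.431 in Valine). Smpx, a small muscle protein at the costamere, had 1, 7 and 0 counts in Control, 22, 23 and 15 in Valine wells and 9, 8 and 12 in Val+PA (log2 fold change 2.63, SE 0.66, adjusted p = 0.00678). Xirp2, Nrap, Synpo2l and Ldb3, which bind actin or alpha-actinin at Z-discs and forming myofibrils, rose by 1.26 (SE 0.19), 1.05 (SE 0.16), 0.79 (SE 0.13) and 0.57 (SE 0.11) on the log2 scale. Synpo2l lies 2.4 kb from Myoz1 on chromosome 14.

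Xirp1, the actin-binding relative of Xirp2, fell. It measured 24.4, 25.1 and 23.2 CPM in Control, 8.39, 11.3 and 8.03 CPM in Valine and 10.4, 15.8 and 10 CPM in Val+PA, with every Control library above the rest (adjusted p = 0.000107). Titin-cap, Tcap, had 0 to 8 counts per library and was not called without the filter (edgeR adjusted p = 0.748 in Valine). Myotilin, Myot, had 0 counts in all libraries.

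The chaperone and turnover members were among the largest rises. Klhl41, an adaptor that stabilises nebulin and nascent myofibrils, measured 2.85, 2.95 and 3.02 CPM in Control, 22.1, 19.1 and 20.7 CPM in Valine and 17.6, 16.9 and 20.5 CPM in Val+PA (log2 fold change 2.81, SE 0.14, adjusted p = 6.97e-08). Unc45b, the folding chaperone of muscle myosin, measured 0.289, 0.456 and 0.403 CPM in Control, 1.87, 2.44 and 2.05 CPM in Valine and 1.87, 2.69 and 1.14 CPM in Val+PA (log2 fold change 2.46, SE 0.35, adjusted p = 0.000156). The window of Klhl41 is printed because it held both E-boxes and a MEF2 box.
Klhl41 (chr2:69669870-69670119, plus strand): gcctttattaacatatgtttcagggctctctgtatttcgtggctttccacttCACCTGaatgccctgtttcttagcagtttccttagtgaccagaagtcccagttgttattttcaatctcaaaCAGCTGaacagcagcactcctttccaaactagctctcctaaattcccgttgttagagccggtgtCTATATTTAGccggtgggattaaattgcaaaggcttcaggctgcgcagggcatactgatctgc

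Of the 36 members with a RefSeq promoter window, 6 had 2 start sites, some of them overlapping, which gave 42 windows of 250 bases. CAGCTG stood in 21 of these windows (50%) and in 13% of all 32851 windows of that length. It was in 13 of 28 windows of members higher in Valine and in 2 of 5 windows of members lower. CACCTG was in 26.2% of member windows and 17.2% of all windows, CATTCC in 16.7% and 12.6%, and TATAAA in 7.14% and 12.4%. The MEF2 box stood in 8 member windows (19%) against 2.92% of all windows. These 8 belonged to members higher in Valine (Casq2, Klhl41, Myom3, Myoz2, Synpo2l, Ttn and Xirp2). Such members held 28 of the 42 windows, and the 5 windows of members lower are too few for a comparison. The CArG box of serum response factor stood in 3 windows, 2 of Ldb3 and 1 of Myom1, and in 1.47% of all. MEF2 and CArG boxes were searched by their degenerate consensus, both motifs can overlap other AT-rich matches, and a match is a string of letters rather than a shown binding site.

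Among genes of excitation-contraction coupling and calcium handling 7 of 10 tested members were higher in Valine than in Control, none was lower and Stac3, Jph1 and Jph2 were not called. Trdn encodes triadin, which ties calsequestrin to the ryanodine receptor. It measured 0.16, 0.395 and 0.201 CPM in Control, 1.87, 1.92 and 1.73 CPM in Valine and 1.09, 0.929 and 1.14 CPM in Val+PA, 3 groups without overlap (log2 fold change 2.82, SE 0.32, adjusted p = 2.67e-05). Cacna1s, the pore and voltage sensor of the L-type channel, measured 0.224, 0.213 and 0.0403 CPM in Control, 1.01, 0.581 and 0.821 CPM in Valine and 0.76, 0.64 and 0.309 CPM in Val+PA (log2 fold change 2.25, SE 0.51, adjusted p = 0.00417). About 20% of its exon bases are shared with a gene model on the other strand. Cacng1, the gamma subunit of the same channel, was far more abundant and changed less. It measured 39.5, 38.2 and 43 CPM in Control, 52.4, 55.7 and 54.2 CPM in Valine and 55.8, 60.4 and 60.1 CPM in Val+PA (log2 fold change 0.43, SE 0.10, adjusted p = 0.00368). On the deposited signal, Cacng1 exceeded Cacna1s in every group, so the transcripts of the 2 subunits were unequal in level.

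Ryr1, the calcium release channel, rose from 4.26 ± 0.35 to 7.29 ± 0.71 CPM (SD, n = 3; log2 fold change 0.77, SE 0.20, adjusted p = 0.00894). That call was lost with limma on the deposited signal (0.28, adjusted p = 0.109). Atp2a1, the fast-fibre pump that returns calcium to the store, rose from 2.06 ± 0.19 to 9.62 ± 0.96 CPM, a log2 fold change of 2.22 (SE 0.20). Its exons share 21.9% of their bases with Rabep2 on the other strand, whose log2 fold change was -0.06 (SE 0.15), not called. Srl, a sarcoplasmic reticulum glycoprotein, rose by 1.19 (SE 0.11). Casq2, the calcium-storing calsequestrin of cardiac and slow muscle, measured 5.45, 4.59 and 4.19 CPM in Control, 7.53, 8.84 and 8.27 CPM in Valine and 7.14, 7.52 and 5.22 CPM in Val+PA (log2 fold change 0.79, SE 0.17, adjusted p = 0.00313). Its fast partner Casq1 had 4 to 7 counts in each Control library, 1 to 3 in each Valine library and 1 to 7 in each Val+PA library. It did not pass the filter and was not called without it (edgeR adjusted p = 0.232 in Valine).

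The junctophilins hold the tubule and the calcium store together. Jph2 measured 38.6, 37.8 and 47.4 CPM in Control, 27.2, 33.3 and 27.6 CPM in Valine and 28.4, 47.7 and 31 CPM in Val+PA, and narrowly missed the threshold (log2 fold change -0.49, SE 0.18, adjusted p = 0.0501). Without Control 3 and Val+PA 2, the libraries with the highest Jph2 in their groups, Jph2 was lower than in Control in both Valine (log2 fold change -0.37, adjusted p = 0.00249) and Val+PA (-0.36, adjusted p = 0.00699). Jph1 averaged 7.25 ± 0.87 CPM in Control against 6.05 ± 0.71 CPM in Valine (SD, n = 3; adjusted p = 0.237). Stac3, an adaptor between channel and receptor, stood at 1.46 ± 0.28 and 1.96 ± 0.07 CPM (adjusted p = 0.13). Cav3, the muscle caveolin, had 0, 1 and 0 counts in Control, 10, 9 and 3 in Valine wells and 11, 10 and 7 in Val+PA. It did not pass the filter, and with no filter edgeR called it higher in Valine (adjusted p = 0.00377) and in Val+PA (0.000725). Ckm, the muscle creatine kinase that buffers ATP, had 0, 0 and 3 counts in Control, 22, 23 and 18 in Valine wells and 18, 22 and 11 in Val+PA. It was called in Valine (adjusted p = 0.00124), and its ratio of counts over Control was 17.7 (95% exact interval 5.8 to 88.3, counting error only). Of its exon bases 15.5% are shared with a gene model on the other strand; the members not named for such an overlap shared at most 9.04%.

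**Figure D3:**
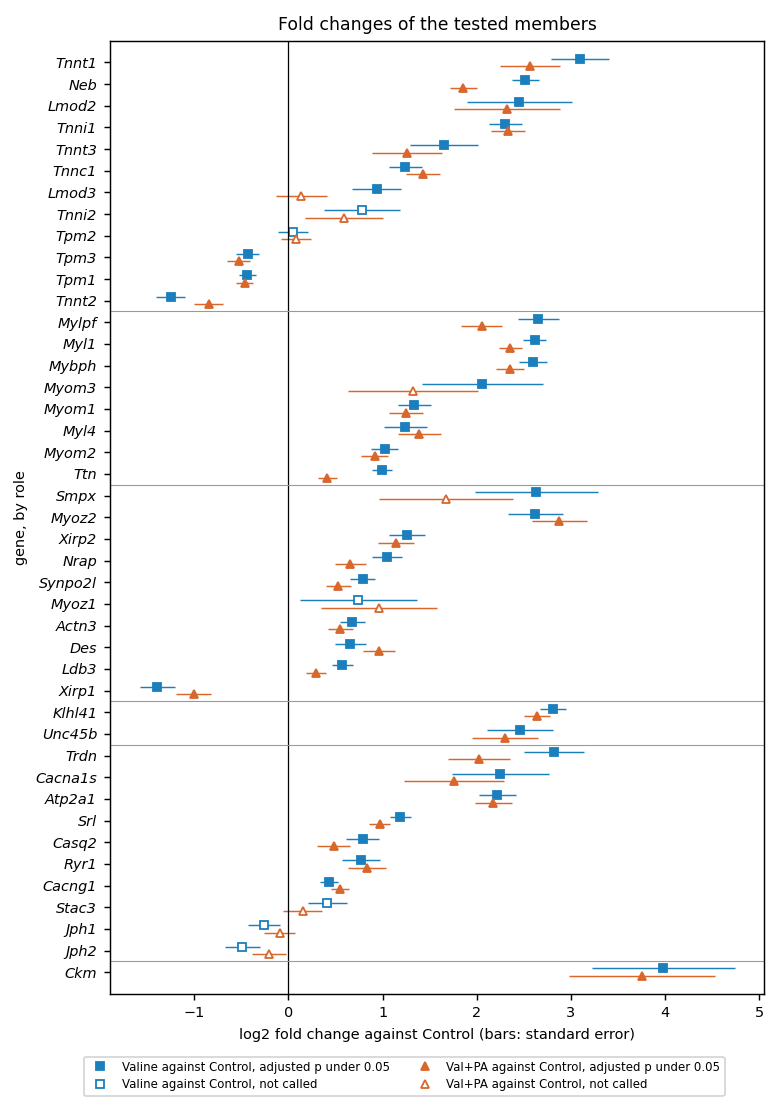
Log2 fold change of each tested member against Control in Valine (squares) and Val+PA (triangles), with standard errors; filled symbols passed the threshold. Most members lie to the right of 0 in both, and the Val+PA symbols of Ttn, Neb, Lmod3, Trdn and Mylpf lie to the left of their Valine symbols.

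Val+PA cells, measured against the same Control libraries, showed 30 of the 43 tested members higher (20.4% of all genes tested were higher) and 4 lower (18.8% of all). Without Control 3 and Val+PA 2 there were 28 higher (25.2% of all genes tested there) and 5 lower (24.6% of all). The members lower with all libraries were again Tnnt2, Tpm1, Tpm3 and Xirp1, with log2 fold changes of -0.85 (SE 0.15), -0.46 (SE 0.09), -0.53 (SE 0.12) and -1.01 (SE 0.19). The largest rises were those of Ckm at 3.75 (SE 0.77), Myoz2 at 2.87 (SE 0.29), Klhl41 at 2.64 (SE 0.13), Tnnt1 at 2.57 (SE 0.32), Myl1 at 2.36 (SE 0.12) and Mybph at 2.35 (SE 0.15). Lmod3, Myom3 and Smpx, called in Valine, were not called in Val+PA (adjusted p = 0.724, 0.154 and 0.083), while the test of Val+PA against Valine did not call them either. Ttn remained higher than Control in Val+PA, by 0.41 (SE 0.10, adjusted p = 0.00712). Casq2 passed at an adjusted p = 0.0446, although its Val+PA and Control libraries overlapped. It no longer did when any 1 library other than Control 1 or Val+PA 3 was left out (adjusted p = 0.0608 to 0.119). It was also lost with limma-voom (0.0581) and the 2 groups alone (0.1). Ldb3 passed at an adjusted p = 0.0494 and no longer did when any 1 library other than Val+PA 1 or Val+PA 2 was left out (adjusted p = 0.0781 to 0.153), nor with no filter (0.143), limma-voom (0.0521), RLE factors (0.0566), the replicate block (0.0794) or the 2 groups alone (0.136). The calls of Cacna1s and Tnnt3 were also lost, Cacna1s without Control 3 or Val+PA 1 (adjusted p = 0.0509 and 0.0707) and Tnnt3 without Val+PA 3 (0.0524), and Ryr1 was lost with limma on the deposited signal (0.0972). Jph2 passed without Val+PA 2 (log2 fold change -0.47, adjusted p = 0.0142). Smpx passed without Control 2 (3.76, adjusted p = 0.00734) and with limma-voom (2.30, adjusted p = 0.0246).

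Set directly against Valine, Val+PA had lower mean levels of Ttn, Neb, Lmod3, Trdn and Mylpf, although no member passed the edgeR quasi-likelihood test, nor did any of the 18415 genes (0%). At an unadjusted p below 0.05, 8 of the 43 tested members were lower (5.47% of all genes tested) and 1, Tnnt2, was higher (7.72% of all). The log2 fold change was negative for 30 of the 43 members, with a median of -0.16, against 9084 negative of all genes tested and a median of 0.00441. The smallest p belonged to Ttn, with a log2 fold change of -0.58 (SE 0.10, unadjusted p = 0.000105, edgeR adjusted p = 0.168). Neb had -0.66 (SE 0.13, adjusted p = 0.192), Lmod3 -0.80 (SE 0.25, adjusted p = 0.313), Trdn -0.80 (SE 0.26, adjusted p = 0.314) and Mylpf -0.605 (SE 0.20, adjusted p = 0.321). For each of these 5 genes every Val+PA library lay below every Valine library. They were picked for the smallest p in this same comparison, so that separation adds no evidence of its own.

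**Figure D4:**
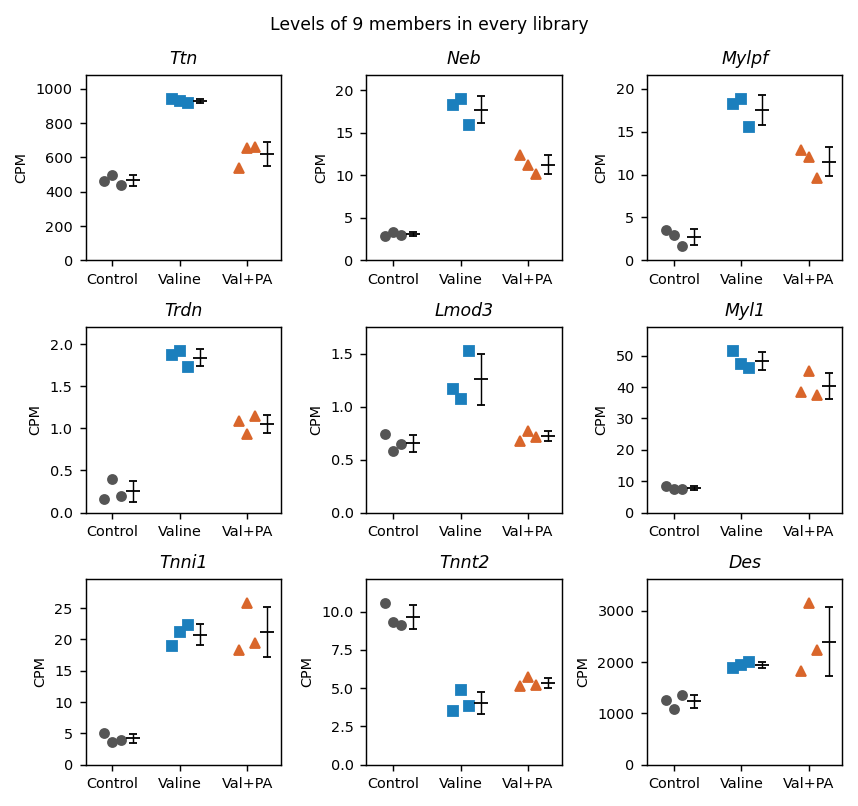
CPM of 9 members in each library, by group (Control circles, Valine squares, Val+PA triangles), with the mean and SD of each group beside the points. Ttn, Neb, Mylpf, Trdn, Lmod3 and Myl1 have Val+PA libraries below all Valine libraries, Tnni1 overlaps, Tnnt2 is above, and Des has its highest point in Val+PA 2.

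The count of members that differed between Val+PA and Valine depended on the libraries and the tool. Without Control 3 and Val+PA 2, edgeR called 6 members lower (1.55% of the genes tested there were lower) and 0 higher (1.66% of all). They were Ttn at -0.63 (SE 0.07, adjusted p = 0.000503), Neb at -0.66 (SE 0.12, adjusted p = 0.00737), Mylpf at -0.64 (SE 0.13, adjusted p = 0.0164), Actn3 at -0.31 (SE 0.06), Synpo2l at -0.41 (SE 0.09) and Myl1 at -0.35 (SE 0.08). DESeq2 on all 9 libraries called 2 members, Ttn and Neb (adjusted p = 0.00028 and 0.00229; 0.434% of all genes were lower). Without the filter on low counts edgeR called Ttn, Neb and Mylpf (0.867% of all genes were lower). Des stood at 2400.2 ± 680.3 CPM in Val+PA and at 1946 ± 53 CPM in Valine (log2 fold change 0.30, SE 0.17, adjusted p = 0.425), and its log2 fold change was 0.06 (SE 0.08) without the same 2 libraries. Val+PA 2 also had the highest level of its group for Tnnc1, Actn3, Synpo2l, Myl1, Ryr1, Jph2, Myl4 and Xirp1, among others. Leaving it out therefore lowers the Val+PA mean of Actn3, Synpo2l and Myl1, which were called only then. That exclusion was chosen after seeing the data.

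Other genes of the sarcomere came from a list of 50. Of 44 tested, 14 were higher and 10 lower in Valine than in Control, where 20.8% of all genes tested were higher and 21.1% lower. In Val+PA 12 were higher and 8 lower, where 20.4% and 18.8% of all were. The shares of this list that were lower were near those of all genes. The largest rises in Valine were Csrp3, a Z-disc LIM protein, at a log2 fold change of 1.98 (SE 0.35), Smyd1, a methyltransferase needed for myofibril assembly, at 1.55 (SE 0.14) and Klhl40, a relative of Klhl41, at 1.42 (SE 0.19). The largest falls were Mylk2, the skeletal myosin light chain kinase, at -1.64 (SE 0.19), Fhl3, a LIM protein, at -1.02 (SE 0.16) and Actn1, the non-muscle alpha-actinin, at -0.92 (SE 0.12). In Val+PA, Tmod1, which caps thin filaments, rose by 1.33 (SE 0.15), and for Ankrd1, a stretch-responsive titin partner, and its relative Ankrd23 the log2 fold changes were -1.17 (SE 0.15) and -1.02 (SE 0.33).

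Of 40 other genes of coupling, calcium and muscle energy supply 34 were tested, with 14 higher and 5 lower in Valine and 13 and 4 in Val+PA, beside the same shares of all genes (20.8% and 21.1%, and 20.4% and 18.8%). Scn4a, the sodium channel of the muscle action potential, rose by 2.94 (SE 0.63) in Valine, with 2, 5 and 0 counts in Control and 34, 13 and 19 in Valine. Mtm1, the myotubularin lipid phosphatase, rose from 11.8 ± 0.5 to 62.4 ± 1.9 CPM (SD, n = 3), with a log2 difference of 2.41 (SE 0.15), and Slc8a3, a sodium-calcium exchanger, by 2.24 (SE 0.56). Eno3, the muscle enolase, fell from 620.5 ± 89.6 to 244 ± 6.8 CPM (log2 fold change -1.35, SE 0.12), and Atp2a2, the slow-fibre and housekeeping calcium pump, fell to 98.5 ± 0.91 CPM (-1.02, SE 0.13). Atp2a1 and Atp2a2 moved in opposite directions. For Itpr1, an inositol trisphosphate receptor, the log2 fold change was -0.68 (SE 0.13).

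Myoblast markers were present in all groups, with 14 of 15 tested, 8 higher and 2 lower in Valine than in Control, and Pax3 under 1 CPM throughout. In that comparison 20.8% of all genes tested were higher and 21.1% lower, the shares to set beside each marker list. The myoblast list holds Des, itself a member that was higher, and the differentiation gene Myog. Its log2 fold changes of Valine over Control ran from -0.70 to 4.02, with a median of 0.68. Myog, near the top of that range, rose from 0.487 ± 0.16 to 7.0 ± 0.51 CPM (SD, n = 3). In bulk RNA, more cells of a type and more RNA per cell cannot be told apart, so a rise may come from all cells or from some. Fibroblast markers moved alongside the members, with 6 of 9 tested higher in Valine and none lower, and summed levels of 1436 to 2190 CPM in Control, 3745 to 3843 CPM in Valine and 3444 to 4967 CPM in Val+PA. Tcf21 was at 0 in all libraries. Their part in the result was not tested. Of 10 cardiac muscle markers 7 were under 1 CPM in every library, Tbx5 was at 0, and the summed level was lower in Valine (18.5 to 18.6 CPM) and Val+PA (17.7 to 23.2 CPM) than in Control (34.7 to 36.7 CPM). The smooth muscle and pericyte list, which also holds Des, had 2 of 9 tested genes higher and 2 lower in Valine, near the shares of all genes. Adipoq, Lep and Retn of the adipocyte list were at 0, and none of its 2 tested genes was called. Of endothelial, immune, and neuron and glia markers 2 of 2, 1 of 3 and 0 of 2 tested genes were higher in Valine, and 0, 1 and 1 lower.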

How the data were processed

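RNA was measured in 9 C2C12 libraries, 3 each of Control, Valine and Val+PA. The count table deposited by the authors holds whole read counts per gene; the submitters' processing notes name HISAT2, featureCounts, DESeq2 and GRCm38, and their settings, strand included, are not given in the sources here. The deposited normalized signal equals, tested on the values, each count divided by a gene length and 1 library factor; that length was within 5% of the GENCODE M21 exon length, up to 1 common scale, for 99.3% of 3615 genes checked. Symbols and coordinates come from GENCODE M21 (GRCm38), which named 97.1% of IDs, and promoter windows from RefSeq (GRCm38.p6).

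Genes were kept by filterByExpr, scaled by TMM and fitted with edgeR 4.0.16 (R 4.3.3) by the quasi-likelihood method, group means only, all 9 libraries in 1 fit with 6 residual degrees of freedom, two-sided, with Benjamini-Hochberg adjustment over 18415 genes at 0.05. The SE of a log2 fold change is its absolute value over the square root of F and may be too small at low counts. The method was tested on simulated data. Alternatives used DESeq2 1.42.0 and limma 3.58.1, among others given in the closing section. Members and lists were chosen with earlier results of these data known. Every member is named; levels in every library are given for the 2 members of each role with the largest called change, the 2 with the highest level per length, and the fast, slow and cardiac partners, and of other pathway genes the 3 largest rises and falls. Further values (per-library levels of Ttn, Xirp1 and members under the filter, and genes called only under an alternative) were chosen after they were seen.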

Additional observations from a re-analysis of the deposited data

How the results depend on the processing

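Over the alternatives, the counts of members higher and lower than Control stayed within 1.5 times of those reported, at 27 to 36 and 3 to 5 in Valine and 26 to 31 and 4 to 5 in Val+PA. Leaving out 1 library gave 32 to 34 and 3 to 5 in Valine and 28 to 30 and 4 to 5 in Val+PA. For Val+PA against Valine the count of members lower was 0, but 2 with DESeq2, 3 with no filter and 6 without Control 3 and Val+PA 2 together, an alternative chosen after seeing the data; it stayed at 0 when any 1 library was left out. No other setting (limma-voom, RLE factors, library size alone, a filter at 1 CPM in 3 libraries, only the 2 groups compared, limma on log2 of the deposited signal plus 1) called a member there. With the replicate number as a block, 33 members were higher and 5 lower in Valine, and 29 and 4 in Val+PA. Between Val+PA and Valine 0 differed with it. Same-numbered deviations from the group means correlated at -0.409 to 0.238, and 3 of 9 libraries correlated best with their own number. The outlying Control 3 and Val+PA 2, of unlike number, correlated at 0.338. Whether same-numbered libraries shared any handling was not tested. Jph2 was lower in Valine with the block (adjusted p = 0.0372), DESeq2 (0.0317), limma-voom (0.0495), RLE factors (0.048), no filter (0.00562), the 2 groups alone (0.00964) and without Val+PA 1 (0.0335) or Val+PA 2 (0.00537). The sign of Tpm2, which was not called, turned to -0.00998 without Control 2, and its log2 fold change ran up to 0.14 when another library was left out. Signs of other values that were not called turned too. Without Control 3 and Val+PA 2, the log2 fold change of Val+PA over Control was -0.19 for Tpm2, -0.021 for Stac3 and 0.0064 for Jph1, and that of Val+PA over Valine was -0.21 for Ryr1. Leaving out 1 library gave -0.14 (without Val+PA 2) to 0.22 for Tpm2, -0.24 to 0.017 (without Val+PA 2; 0.0005 without Control 2) for Jph1, and -0.20 (without Val+PA 2; -0.0097 without Valine 3) to 0.23 for Ryr1. Genes at a few counts in Control have fold changes whose size is limited by depth. They include Ckm, Smpx, Lmod2, Myom3, Scn4a, Tnnt1, Myoz2, Trdn, Cacna1s and Unc45b. The cause of these differences was not tested.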
